A study of Mus musculus with 24 samples.

Results

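The mitochondrial fatty acid beta-oxidation genes described here were 34 named genes of the carnitine shuttle, the acyl-CoA dehydrogenases and their electron carriers, the enzymes of the oxidation cycle, its auxiliary enzymes and ketone body breakdown, picked by symbol from the 47643 genes of the deposited count table. All 34 symbols matched a row. They were measured in plantaris, a fast hindlimb muscle, of wild type mice of the C57BL/6 strain. 11 samples came from mice kept in normal air and 13 from mice exposed to tobacco smoke, and the study's design text gives the exposure as 16 weeks. The age and sex of the animals, the smoke dose and the time of day of collection are not given in the sources used here, nor is it stated that each sample is a separate animal, so the p-values measure only the spread between these samples. RNA was sequenced from the 3′ end (Lexogen QuantSeq 3′ FWD), so counts were not divided by gene length and levels are compared within a gene only.

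Muscle burns long-chain fatty acids inside mitochondria. Carnitine palmitoyltransferases and a carrier bring the acyl chain across the membranes, and a spiral of dehydrogenation, hydration, a further oxidation and thiolysis then removes acetyl-CoA from it turn by turn, with electrons passed on by the electron transfer flavoproteins. Auxiliary isomerases and reductases prepare unsaturated chains, and the ketone body enzymes turn ketones from the blood into the same acetyl-CoA. Slow and type IIa fibres hold more of this machinery than the fast fibres that make up most of the plantaris.

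Library totals ran from 2868810 to 4060570 counts in air and from 2515700 to 4528840 in smoke. The tissue label held: Acta1, the skeletal actin, was at 45095 to 68442 CPM (counts scaled to a common library total with TMM factors) in air and 43074 to 60192 in smoke, and 0 of 12 tested skeletal muscle markers were called by edgeR (1 at an unadjusted p under 0.05, Myh4, the fast IIb myosin, at a log2 change of 0.16). Several marker lists differed between the groups. Of 6 blood markers 5 were tested and 3 were called lower under smoke (Hbb-bs, Hbb-bt, Hba-a2), with a summed level of 487 to 1445 CPM in air and 369 to 884 in smoke. Of 8 Schwann cell markers 7 were tested and 5 were called higher (123 to 287 CPM in air, 183 to 928 in smoke). The 10 adipocyte markers had 0 called by the edgeR test (3 at an unadjusted p under 0.05), with sums of 3953 to 6195 and 4593 to 6520 CPM. Of 5 brown adipocyte markers Ucp1, which defines brown fat, and Elovl3 had 0 or 1 count in every sample. Cidea had 2 to 19 and Dio2 2 to 25 counts a sample. Only Cox8b, also listed below with complex IV, was tested, and it was called lower (log2 change −0.19, edgeR adjusted p = 0.0261). Of 9 macrophage and other leukocyte markers 6 were tested and Cd74 was called lower (sums of 88.5 to 153 CPM in air and 99.4 to 149 in smoke). The fibroblast and matrix markers had 0 of 7 called by edgeR, with 3 lower at an unadjusted p under 0.05 (Col1a1, Col3a1, Fbn1) and sums of 245.5 to 377.4 CPM in air and 227.3 to 377.0 in smoke, and the endothelial markers 0 of 8 called (2 at an unadjusted p under 0.05), with sums of 213.0 to 324.0 CPM in air and 244.6 to 326.4 in smoke. Of 14 circadian clock genes 12 were tested, with Nfil3 called lower and Dbp, Per3 and Nr1d2 called higher. The part of these markers in the results was not tested beyond the fits with covariates given with the called genes. In whole tissue, fewer cells of a type and less RNA per cell cannot be told apart.

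29 of the 34 genes had enough counts to be tested. 8 of them fell under smoke and 0 rose (edgeR quasi-likelihood test, Benjamini-Hochberg adjusted p under 0.05 over all 10159 genes tested), which is 27.6% of those tested. Of all tested genes 1.92% were called in either direction, 1.19% lower and 0.728% higher. At an unadjusted p under 0.05, 14 of the 29 were lower and 0 higher, beside 7.95% lower and 7.55% higher of all genes. The log2 fold change of smoke against air was below 0 for 24 of the 29 (48.4% of all genes), with a median of −0.16 and a range of −0.43 to 0.24, beside a median of 0.0066 over all genes. In 3 of the 29 (Ech1, Acad12, Bdh1) all 13 smoke samples lay below the air mean, as in 1.81% of all genes, and in 0 of the 29 the groups did not overlap, beside 0.0197% of all genes with every smoke sample below every air sample. The falls were shallow, between 14.8% and 26.1% of the air mean. The sum over all 34 genes ran from 3042 to 3475 CPM in air, with a median of 3296, and from 2743 to 3293 in smoke, with a median of 2911. 11 of the 13 smoke sums were below the lowest air sum, and 6 of the 11 air sums were above the highest smoke sum, so the sums overlapped.

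**Figure D1:**
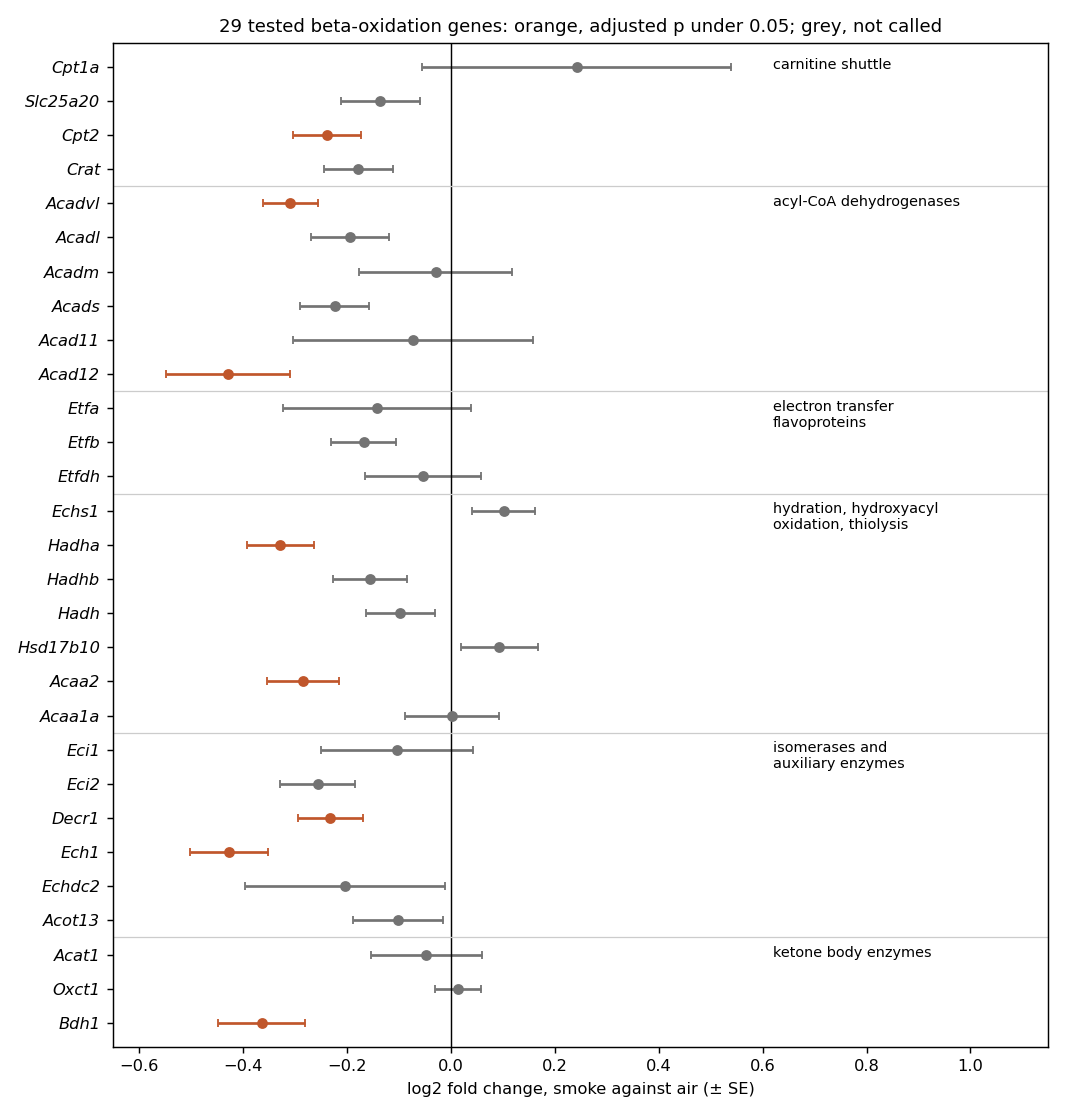
Log2 fold change of smoke against air, with its standard error (SE), for the 29 tested genes, ordered by step of the pathway. The 8 called genes (orange) lie between −0.43 and −0.23, and every step but the electron transfer flavoproteins holds at least 1.

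Among the genes of the carnitine shuttle, 1 of 4 tested was called. Cpt2, the inner-membrane transferase that hands the acyl chain back to CoA (chr4:107903981-107923610, minus strand, GRCm38), had a lowest, median and highest level of 44.6, 53.6 and 58.3 CPM in air and of 35.0, 44.3 and 53.5 CPM in smoke. 12 of the 13 smoke samples were below the air mean and 8 below the lowest air sample. Cpt2 fell by 0.24 on the log2 scale (SE 0.07, edgeR adjusted p = 0.0495). This call lay close to the threshold and was kept in 8 of the 24 fits that left out 1 sample, those without air 2, 8, 9 or 10 or smoke 1, 10, 12 or 13.

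The other shuttle genes were not called. Crat, which forms acetylcarnitine and so buffers acetyl-CoA, ran from 106 to 159 CPM in air (median 127) and from 94.1 to 130 CPM in smoke (median 114), a log2 change of −0.18 (SE 0.07, edgeR adjusted p = 0.157) with overlapping groups. Slc25a20, the carnitine-acylcarnitine carrier, had a log2 change of −0.14 (SE 0.08). Cpt1a, the liver form of the outer-membrane transferase, had only 1 to 25 counts a sample and a log2 change of 0.24 (SE 0.30). Cpt1b, the muscle form of that transferase and the gate of the pathway, had 0 to 2 counts in every sample and could not be judged. GENCODE M21, which gave the coordinates here, places another gene, Gm44502, on the same strand over 81.1% of the last 500 exonic bases of Cpt1b. That gene's ID is not a row of the deposited counts, and its number is above the highest one there. Etfb, described with the flavoproteins, has annotated same-strand overlap over 58.6% of its last 500 exonic bases and was counted at 868 to 1881 a sample. The part of such overlaps in the counts was not tested. Slc22a5, the carnitine transporter of the cell membrane, also had 0 to 2 counts a sample.

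The acyl-CoA dehydrogenases, which take the first step on chains of decreasing length, had 2 of 6 tested genes called. Acadvl, the very-long-chain enzyme (chr11:70010183-70015411, minus strand, GRCm38), was at 368, 405 and 448 CPM (lowest, median, highest) in air and 283, 329 and 423 CPM in smoke. 12 of 13 smoke samples lay below the lowest air sample, and only smoke 13, the highest, reached the air range. Acadvl fell by 0.31 (SE 0.05, edgeR adjusted p = 0.00107) and was called in each of the 24 fits that left out 1 sample. Its annotated exons overlap those of Dvl2 on the other strand over 52.7% of the last 500 bases, and strand use in the authors' counting is not given in the sources used here; Dvl2 had 29 to 70 counts a sample and Acadvl 865 to 1629.

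Acad12, a less studied member of the dehydrogenase family (chr5:121596775-121618938, minus strand, GRCm38), was at 9.56, 12.2 and 14.0 CPM in air and 5.86, 9.67 and 11.3 CPM in smoke. Every smoke sample was below the air mean, and 6 were below the lowest air sample. Acad12 fell by 0.43 (SE 0.12, edgeR adjusted p = 0.0492), a call kept in 7 of 24 fits, those without air 2 or 10 or smoke 1, 2, 3, 7 or 13. Acads, the short-chain enzyme, was not called, at 96.4 to 143 CPM in air (median 127) and 88.0 to 123 CPM in smoke (median 99.9), and a log2 change of −0.22 (SE 0.07, edgeR adjusted p = 0.0699). It passed the threshold in 4 fits, those without air 2 or 9 or smoke 1 or 3, while the groups overlapped.

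Acadl, the long-chain enzyme, ran from 92.9 to 157 CPM in air (median 132) and 89.7 to 138 CPM in smoke (median 118), a log2 change of −0.19 (SE 0.07, edgeR adjusted p = 0.177). Without air 11, its lowest air sample, the adjusted p was 0.0496. Acadm, the medium-chain enzyme, differed widely between air samples, from 37.5 to 191 CPM, and ran from 77.3 to 166 CPM in smoke. Its log2 fold change was −0.03 with a 95% interval of −0.34 to 0.28. That interval holds falls as large as that of Acadvl, so no difference was detectable. Acad11 was also variable (2.83 to 17.7 CPM in air, log2 fold change −0.07, SE 0.23), and Acad9 (1 to 14 counts) and Acad10 (1 to 9 counts) were below the filter.

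The electron transfer flavoproteins take electrons from every one of these dehydrogenases to the respiratory chain, and 0 of 3 were called by edgeR, with 1 at an unadjusted p under 0.05. That gene was Etfb, the beta subunit, at 372 to 556 CPM in air (median 460) and 334 to 501 CPM in smoke (median 394), a log2 change of −0.17 (SE 0.06, edgeR adjusted p = 0.160). The groups overlapped, with 4 smoke samples below the lowest air sample. Etfa, the alpha subunit, had a log2 change of −0.14 (SE 0.18) and Etfdh, the ubiquinone oxidoreductase, one of −0.05 (SE 0.11). In air the log2 ratio of Etfa to Etfb was −4.24 ± 0.77 (SD, n = 11), and in smoke it was −4.15 ± 0.61 (SD, n = 13), a difference of 0.09 (two-sided permutation test, p = 0.745).

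In the remaining core cycle, 2 of 7 genes were called. Hadha, the alpha subunit of the trifunctional protein that carries the hydratase and the long-chain hydroxyacyl dehydrogenase (chr5:30118304-30155162, minus strand, GRCm38), was at 186.7, 231.8 and 274.5 CPM in air and 155.7, 180.0 and 230.9 CPM in smoke. 7 smoke samples were below the lowest air sample, and the groups overlapped. Hadha fell by 0.33 (SE 0.06, edgeR adjusted p = 0.00427), called in each of the 24 fits that left out 1 sample. Acaa2, the mitochondrial 3-ketoacyl-CoA thiolase on chromosome 18, was at 158, 186 and 217 CPM in air and 130, 148 and 199 CPM in smoke. 9 smoke samples were below the lowest air sample. Acaa2 fell by 0.28 (SE 0.07, edgeR adjusted p = 0.0235), again in each of those fits.

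Hadhb, the beta subunit that carries the thiolase of the same complex, was not called, at 75.2 to 128 CPM in air (median 104) and 79.1 to 109 CPM in smoke (median 94.3), a log2 change of −0.16 (SE 0.07, edgeR adjusted p = 0.268). The difference between both subunits was tested directly, as 1 of 2 subunit ratios chosen after the values were seen. In air the log2 ratio of Hadha to Hadhb was 1.16 ± 0.29 (SD, n = 11), and in smoke it was 0.98 ± 0.16 (SD, n = 13), a difference of −0.18 (two-sided permutation test, p = 0.0604), so an unequal change of the subunits was not shown. Echs1, the short-chain hydratase, was at 77.4 to 104 CPM in air and 81.3 to 116 CPM in smoke, with a log2 change of 0.10 (SE 0.06). Hsd17b10 and Hadh, hydroxyacyl dehydrogenases of shorter chains, had 0.09 (SE 0.07) and −0.10 (SE 0.07). Acaa1a, a peroxisomal thiolase with a near-identical copy, Acaa1b, that the counting may split, had 0.0021 (SE 0.09).

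Among the isomerases and auxiliary enzymes, 2 of 6 tested genes were called. Ech1, the dienoyl-CoA isomerase that shifts double bonds of unsaturated chains (chr7:28825217-28832247, plus strand, GRCm38), was at 90.6, 113 and 134 CPM in air and 64.7, 82.6 and 109 CPM in smoke. Every smoke sample was below the air mean, and 10 were below the lowest air sample. Ech1 fell by 0.43 (SE 0.07, edgeR adjusted p = 0.00150), in each of the 24 fits that left out 1 sample. Decr1, the dienoyl-CoA reductase of the same branch (chr4:15917240-15945507, minus strand, GRCm38), was at 103, 118 and 136 CPM in air and 82.5, 99.6 and 125 CPM in smoke, with 10 smoke samples below the lowest air sample. Decr1 fell by 0.23 (SE 0.06, edgeR adjusted p = 0.0426), a call kept in 7 of 24 fits, those without air 2, 3, 6 or 10 or smoke 2, 10 or 13.

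Eci2, a peroxisomal and mitochondrial enoyl-CoA isomerase, lay just outside the threshold. It was at 31.6, 34.7 and 42.6 CPM in air and 25.6, 29.6 and 38.1 CPM in smoke, with 10 smoke samples below the lowest air sample, and its log2 fold change was −0.26 (SE 0.07, edgeR adjusted p = 0.0521). It was called without air 10, smoke 10 or smoke 13. Eci1, the mitochondrial isomerase, had −0.10 (SE 0.15), Acot13, a thioesterase that releases fatty acid from CoA, −0.10 (SE 0.09), and the poorly counted hydratase-like Echdc2 −0.20 (SE 0.19). Echdc3 (0 to 12 counts) was below the filter. In an edgeR fit without the filter it had a log2 change of 0.91 (SE 0.36, adjusted p = 0.307), from 0.922 ± 0.34 CPM (SD, n = 11) to 1.80 ± 0.89 (SD, n = 13).

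Of the ketone body enzymes, 1 of 3 was called. Bdh1, which oxidises beta-hydroxybutyrate to acetoacetate (chr16:31422280-31458901, plus strand, GRCm38), was at 57.6, 82.5 and 102 CPM in air and 50.9, 64.4 and 71.4 CPM in smoke. 8 of the 11 air samples were above the highest smoke sample, and the lowest air samples lay within the smoke range. Bdh1 fell by 0.36 (SE 0.08, edgeR adjusted p = 0.0142), in each of the 24 fits that left out 1 sample. Oxct1, the CoA transferase that commits ketones to oxidation in muscle, was at 303 to 359 CPM in air and 308 to 362 CPM in smoke, a log2 change of 0.01 with a 95% interval of −0.08 to 0.10. Acat1, the acetoacetyl-CoA thiolase, had −0.05 (SE 0.11).

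**Figure D2:**
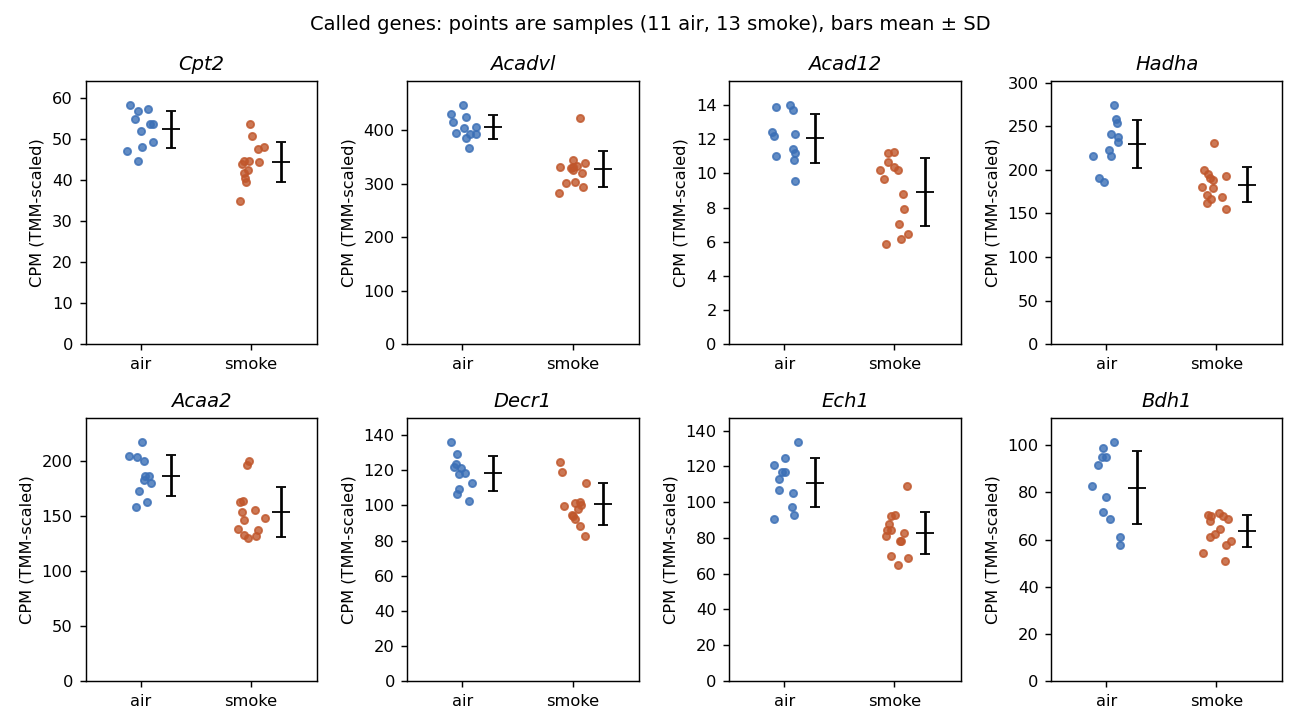
Level in CPM of the 8 called genes in each sample, with mean and standard deviation per group; each axis starts at 0. The groups overlap in every panel, and the highest Acadvl point of smoke is smoke 13 at 423 CPM.

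The calls moved with other measures that differ between the groups. An index of clock phase compared Dbp, Tef, Hlf, Per1, Per2, Per3, Nr1d1, Nr1d2, Ciart and Bhlhe41 with Arntl, Npas2, Clock and Nfil3, where tested. It was the mean standardised level of the former minus that of the latter. Nfil3, Dbp, Per3 and Nr1d2, called between these same groups, are among its genes. The index ran from −1.73 to 0.31 in air and from −1.18 to 1.98 in smoke and correlated with the group at r = 0.74. With this index as a covariate 0 of the 29 genes were called by edgeR, beside 3 of all 10159 (0.0295%). At an unadjusted p under 0.05 there were 12 of the 29 (41.4%), beside 12.5% of all genes. The log2 fold changes of Acadvl (−0.33), Ech1 (−0.47), Hadha (−0.42), Acaa2 (−0.42), Decr1 (−0.34), Acad12 (−0.64) and Cpt2 (−0.29) were then larger in size than without it, with adjusted p-values of 0.0733 to 0.212 in that edgeR fit, while Bdh1 had −0.23 (adjusted p = 0.453). With a blood score as a covariate (r = −0.56 with the group) 3 were called (10.3%, beside 0.551% of all genes), Acadvl, Hadha and Bdh1. Of the others, Ech1 had −0.31, Acaa2 −0.26, Cpt2 −0.24, Acad12 −0.54 and Decr1 −0.20 (edgeR adjusted p-values of 0.0752 to 0.242). The slow and IIa fibre markers had 0 of 9 tested genes called by edgeR (4 at an unadjusted p under 0.05, all lower: Myh2, Myl2, Myl3 and Atp2a2, with log2 changes of −0.27, −0.46, −0.29 and −0.35), at summed levels of 3599 to 5642 CPM in air and 2934 to 5041 CPM in smoke. With their score as a covariate 6 of the 29 were called, beside 1.89% of all genes. That score is a mean of log2 levels, in which Tnnc1 (0.59), Tnni1 (0.43) and Myh7 (0.15) had positive log2 changes, and it correlated with the group at r = −0.11, so it hardly carries the lower sums of the list.

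The spread between samples differed greatly from gene to gene. The median coefficient of variation of the tested genes was 12.9% in air and 12.5% in smoke, beside 20.5% and 20.3% over all tested genes. Oxct1 was the steadiest, at 5.59% and 5.35%, and Acadvl was at 5.61% in air and 10.4% in smoke. Acadm (33.7% and 20.0%), Etfa (41.7% and 33.0%), Acad11 (51.8% and 40.3%) and Eci1 (30.9% and 23.6%) varied far more. Single samples recurred at the extremes: air 11 was the lowest air sample for 12 of the 29 genes and the highest for 7, smoke 10 was the lowest smoke sample for 8, and smoke 13 was the highest for 8, among them 5 of the 8 called genes. Without air 11, 6 of the 29 were called and the median log2 fold change was −0.19, and without smoke 13, 9 were called. Over all genes, 254 of 10232 were called without air 11 and 254 of 10127 without smoke 13. With every sample kept it was 195 of 10159.

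**Figure D3:**
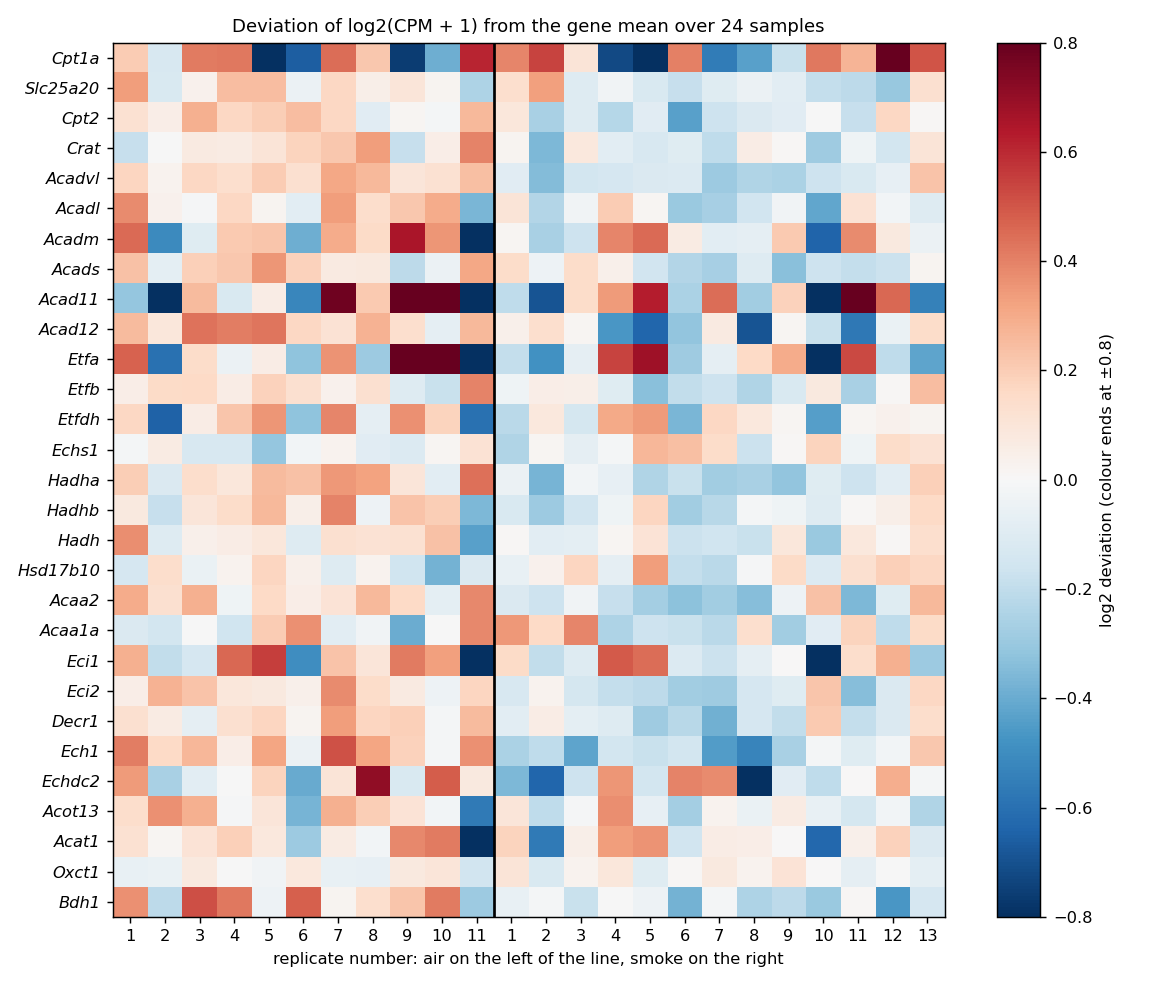
Deviation of log2(CPM + 1) from each gene's mean over all 24 samples, genes in pathway order by sample number, air left of the line and smoke right of it. Most smoke columns are blue for Acadvl, Hadha and Ech1, while Acadm, Acad11, Etfa, Eci1 and Acat1 have their lowest values of each group in air 11 and smoke 10.

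Pairs of genes were compared within each group, in 812 relations (406 pairs in each of the groups) on log2(CPM + 1), with permutation tests adjusted by Benjamini-Hochberg over all 812. Pearson's r passed an adjusted p under 0.05 for 30 positive and 5 negative pairs in air and for 23 positive and 2 negative pairs in smoke. The median pair hardly correlated: on log2 CPM with a prior count of 2, the median r over the 406 pairs was 0.05 in air and 0.11 in smoke, beside −0.0013 and −0.0021 over all pairs of tested genes. How many pairs of all genes would pass was not computed. 14 pairs passed in both groups. 13 of these joined genes of a set made up of Acadm, Acadl, Acad11, Etfa, Eci1, Acat1 and Hadh, and the remaining one was Acadvl with Hadha. The pairs given next were chosen after their values were seen.

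Acadvl and Hadha, which act one after the other on long chains, had r = 0.85 in air (permutation p = 0.00101, adjusted 0.0241; rho = 0.88, permutation p = 0.00068, adjusted 0.0552) and r = 0.89 in smoke (permutation p = 0.00013, adjusted 0.0132; rho = 0.73, permutation p = 0.00602, adjusted 0.148). When the 2 samples with the most distant Acadvl levels were dropped, r was 0.79 in air and 0.70 in smoke. Acadm and Etfa had r = 0.88 in air (permutation p = 9e-05, adjusted 0.0116; rho = 0.94, permutation p = 0.00012, adjusted 0.0487) and r = 0.90 in smoke (permutation p = 0.0001, adjusted 0.0116; rho = 0.75, permutation p = 0.0046, adjusted 0.144). Without 2 samples, r was 0.77 and 0.80.

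Not every pair of the same step or complex passed. Acadvl and Acadm, enzymes of the same step, had r = −0.07 in air (permutation p = 0.842, adjusted 0.945; rho = −0.05, permutation p = 0.880) and 0.16 in smoke (permutation p = 0.581, adjusted 0.822; rho = 0.43, permutation p = 0.147). The subunits of the trifunctional protein, Hadha and Hadhb, had r = −0.10 in air (permutation p = 0.768; rho = −0.05, permutation p = 0.902) and 0.41 in smoke (permutation p = 0.166; rho = 0.26, permutation p = 0.383). The subunits of the electron transfer flavoprotein, Etfa and Etfb, correlated negatively, and Pearson's r in air was the only one of their coefficients to pass. They had r = −0.90 in air (permutation p = 0.00025, adjusted 0.0152; rho = −0.75, permutation p = 0.0102, adjusted 0.172; −0.77 without 2 samples) and r = −0.73 in smoke (permutation p = 0.00499, adjusted 0.0619; rho = −0.74, permutation p = 0.00576, adjusted 0.146; −0.63 without 2 samples). Air 11 and smoke 10, the lowest samples for Acadm and Etfa, also had the lowest share of counts from mitochondrial genes in their groups, 1.82% and 2.35%, beside group medians of 3.02% and 2.87%. They held 16.1% and 17.7% of counts on Gm42418, a predicted gene with a large share of all counts, beside medians of 12.6% and 14.1%. The part of these shares in the correlations was not tested.

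**Figure D4:**
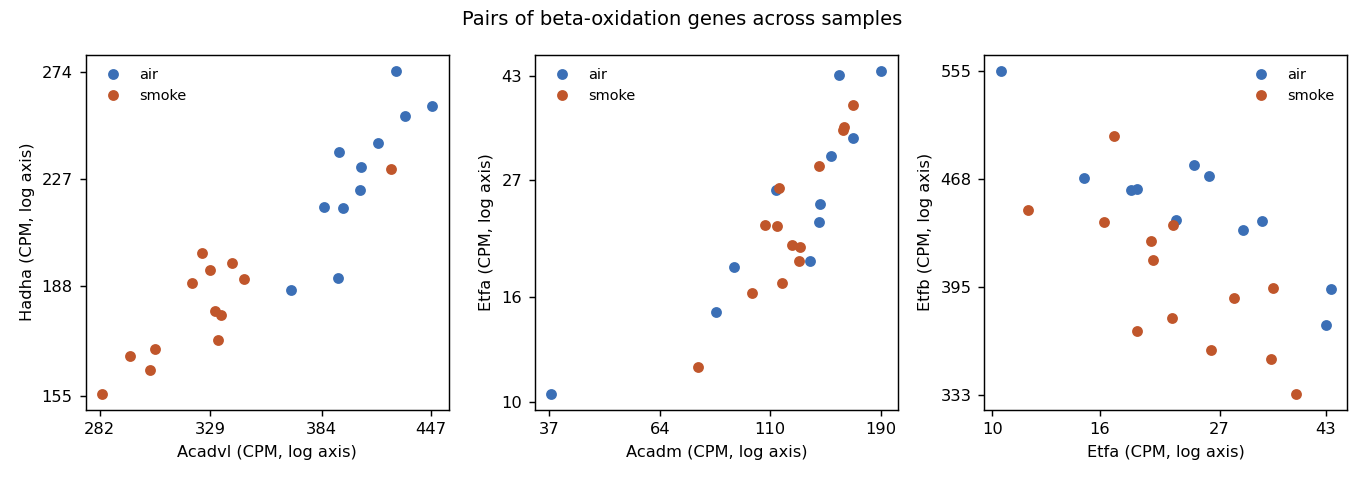
Levels of 3 pairs of genes in each sample, CPM on log axes, air blue and smoke orange. Acadvl with Hadha and Acadm with Etfa rise together (r = 0.85 and 0.88 in air), and Etfb is lower where Etfa is higher (r = −0.90 in air).

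For 27 of the 34 genes RefSeq gives a window from 250 bases before to 50 after the start (28 windows, GRCm38.p6). The stretches shown belong to the genes with the smallest adjusted p of the core cycle. The first is the 150 bases before the Acadvl start, read on its own strand (chr11:70015429-70015578, minus strand, 55.3% G or C), with the single AGGTCA in capitals. The second is the whole gap of 85 bases between the divergent starts of Hadha and Hadhb (chr5:30155163-30155247, plus strand, 69.4% G or C), which both genes share.
Acadvl: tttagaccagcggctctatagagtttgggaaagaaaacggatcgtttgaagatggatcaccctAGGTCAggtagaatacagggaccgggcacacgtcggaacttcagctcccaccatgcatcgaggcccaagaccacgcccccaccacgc
Hadha and Hadhb: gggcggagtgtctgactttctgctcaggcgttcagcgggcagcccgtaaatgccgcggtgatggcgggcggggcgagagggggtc

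Searched on both strands, AGGTCA, the half-site of many nuclear receptors, was in the windows of 5 genes (Acadm, Acadvl, Cpt1a, Echdc3, Echs1), and 16.3% of all 32851 windows hold it. In Acadvl its first base lies 87 bases before the start. The direct repeat bound by PPAR receptors, AGGTCA and AGGTCA with 1 base of any kind between, was in 0 of the 28 windows (0.0396% of all windows), TCAAGGTCA, the site of the ERR receptors, in 0 (0.423%) and TTATGTAA, the D-box, in 0 (0.938%). CACGTG, the E-box, was in the window of Echdc2 only (7.15%). AGGTCA lies inside both longer receptor motifs, so those searches overlap.

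Outside the cycle, 71 of 82 further genes of fatty acid use were tested, and 5 were called lower and 0 higher (7.04% called lower, beside 1.19% of all genes), with a median log2 change of −0.05. At an unadjusted p under 0.05, 19 were lower and 3 higher, and the 3, none of them called, were Txnip (0.37), Acsl4 (0.23) and Mmut (0.16). Fabp3, the muscle fatty acid carrier, fell from 810 ± 184 CPM (SD, n = 11) to 539 ± 101 (SD, n = 13), by 0.59 on the log2 scale (SE 0.10, edgeR adjusted p = 0.00107). 3 of the 5 belong to lipid droplets, where 3 of 9 tested genes were called: Plin5, which ties droplets to mitochondria, fell by 0.63 (SE 0.14, edgeR adjusted p = 0.00980), Mgll, the last lipase, by 0.29 (SE 0.07, edgeR adjusted p = 0.0272), and Plin4, a droplet coat protein, by 0.25 (SE 0.07, edgeR adjusted p = 0.0481). Pdk4, which shuts off pyruvate oxidation when fat is burned, fell by 1.14 (SE 0.27, edgeR adjusted p = 0.0165), from 5.32 ± 2.20 to 2.36 ± 1.29 CPM, at 1 to 36 counts a sample. With the clock index as a covariate only Fabp3 of these 5 was called, and with the blood score only Fabp3 and Plin5. Mgll was not called without air 1 or air 6, and Plin4 was called in 9 of the 24 fits that left out 1 sample, those without air 2, 6, 9 or 10 or smoke 2, 6, 10, 12 or 13.

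Apart from Fabp3, none of the 13 tested genes of delivery and activation was called. Cd36, a fatty acid translocase, had a log2 change of −0.18 (SE 0.07, edgeR adjusted p = 0.191), Lpl, which frees fatty acids from lipoproteins, −0.07 (SE 0.06), and Acsl1, which activates them with CoA, −0.14 (SE 0.06, edgeR adjusted p = 0.205). Among the regulators, Ppara had −0.20 (SE 0.17), Ppard 0.10 (SE 0.16), Ppargc1a −0.21 (SE 0.09, edgeR adjusted p = 0.222) and Esrra −0.09 (SE 0.07), and 0 of 14 tested regulators were called by edgeR (2 at an unadjusted p under 0.05). Of these 14, 9 had log2 changes above 0 and 5 below, with a median of 0.08. The regulator with the smallest p was Esrrb, an estrogen-related receptor, at −0.39 (SE 0.12, edgeR adjusted p = 0.0780). Acacb, which makes the malonyl-CoA that blocks the shuttle, had 0.02 (SE 0.07), and Ucp3, an uncoupling protein, −0.10 (SE 0.11). Mlycd, which breaks malonyl-CoA down, had −0.20 (SE 0.06, edgeR adjusted p = 0.0761), with all 13 smoke samples below the air mean, and was not called. Set beside other energy pathways, the TCA cycle had 0 of 18 genes called by edgeR (8 at an unadjusted p under 0.05, median −0.09). Complex IV with cytochrome c had 3 of 15 called, all lower (Cox6b1, Cox7a1, Cox8b), with 10 of 15 lower at an unadjusted p under 0.05, 14 of 15 log2 changes below 0 and a median of −0.10, and glycolysis had 1 of 13, Ldhb, called lower (3 at an unadjusted p under 0.05, median 0.0063). Whether the beta-oxidation genes differ from these lists was not tested.

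**Figure D5:**
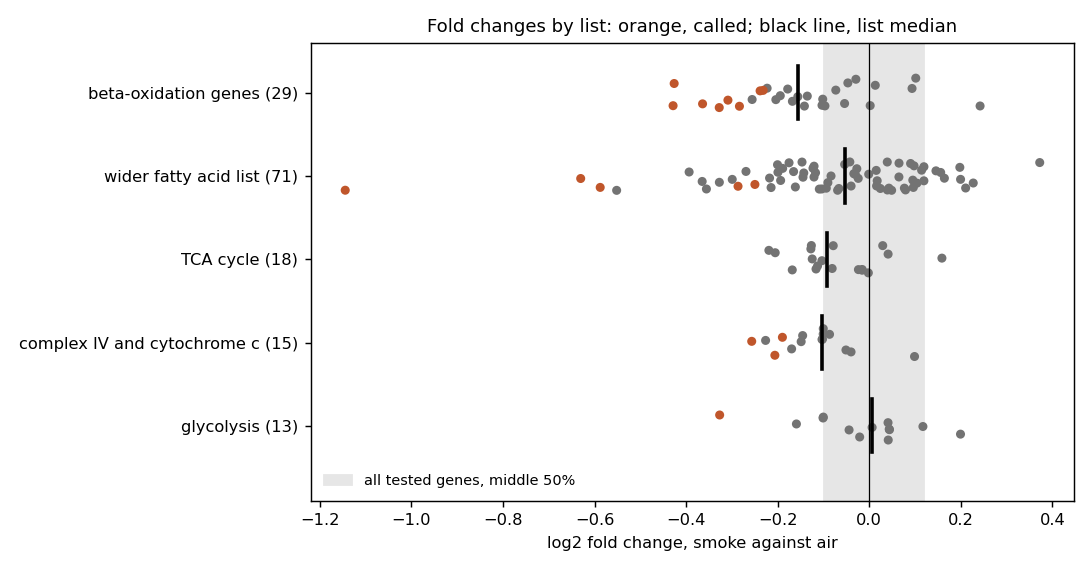
Log2 fold change of each tested gene by list, with the list median as a black line, called genes in orange and the middle 50% of all tested genes shaded. The beta-oxidation genes have a median of −0.16 and 8 called genes, glycolysis a median of 0.0063 and 1.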

How the data were processed

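Untransformed read counts were deposited by the authors, with Ensembl gene IDs as rows and the 24 samples as columns. The submitters' processing notes name STAR, DESeq2 and mm9, without versions or roles. The counting tool, the annotation, strand use and molecular identifiers are not given in the sources used here, so counts may include PCR copies, and floors cover counting error only. Per the file headers all samples share lane 6, and the sample sheet numbers of the groups form separate blocks, so sheet position cannot be told apart from exposure. Sample titles gave the groups and the replicate numbers.

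Symbols and coordinates (1-based) came from GENCODE M21 (GRCm38), which held 99.1% of the IDs; promoter sequence came from RefSeq (GRCm38.p6). Counts were filtered (filterByExpr, minimum count 10), TMM-scaled and tested in edgeR 4.0.16 (R 4.3.3) by quasi-likelihood over all 24 samples, with no covariate and with Benjamini-Hochberg adjustment over 10159 genes. SE is the absolute log2 fold change over the square root of F. The 95% intervals of log2 changes come from the same fit and reflect the spread between samples. A floor of 3 counts equals 0.665 to 1.15 CPM. On simulated counts of 9979 genes, 200 of them changed, the fit recovered 89% of 2-fold and 68% of 1.5-fold changes. The falls of the called beta-oxidation genes were smaller than 1.5-fold, and recovery of changes that small was not simulated. Chi-square per gene over 133 pairs of samples within groups was 2.33 to 16.0, and no samples were merged.

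Every one of the 34 genes received a value; called genes and the 6 with the smallest p otherwise are given in full. Of the wider list, all called genes and 11 genes chosen by name are given (Fabp3 and Pdk4 are both), and Esrrb, Mlycd, Txnip, Acsl4 and Mmut were added after their values were seen. The members, lists, motifs and tests were chosen with earlier results of these data known. Alternatives were other scalings, filters and tests (DESeq2 1.42.0, limma 3.58.1), covariates, a replicate block, thinning and leaving out each sample.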

Additional observations from a re-analysis of the deposited data

How the results depend on the processing

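The median log2 fold change of the 29 tested beta-oxidation genes stayed below 0 in every alternative run, from −0.18 to −0.13 over the settings and from −0.19 to −0.13 over the fits that left out 1 sample. No setting run called a beta-oxidation gene higher. Of 8 genes, 5 were called without the expression filter, 5 after thinning to the smallest library, 3 with the blood score and 0 with the clock index (12 at an unadjusted p under 0.05). The fit without the filter tested 27644 genes and the thinned fit 9301, and their calls over all genes are not given here. With the replicate number as a block (the replicate block, 22 samples) 4 were called, Acadvl, Hadha, Acaa2 and Ech1. Same-numbered samples correlated at a mean of −0.0059 over 11 pairs (−0.28 to 0.14, 4 over 0.1), beside a mean of 0.0011 over other pairs. These values cannot decide whether the numbers pair the samples, since pairing need not show in such correlations. Leaving out 1 sample gave 5 to 9 called genes, with 5 without air 1, 4, 5 or 7 or smoke 4, 5, 6, 8, 9 or 11.

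Of the wider list 5 genes were called, but 1 with the clock index, 2 with the blood score and 10 at an adjusted p under 0.10 (3 to 6 leaving out 1 sample, 3 without air 1). The 4 called genes of the compared lists became 8 in DESeq2, 2 without the filter, 2 under the replicate block, 0 with the clock index (10 at an unadjusted p under 0.05) and 2 with the blood score, with 2 to 5 leaving out 1 sample (2 without air 8). Over all genes 195 became 330 in DESeq2, 3 with the clock index, 56 with the blood score and 413 at an adjusted p under 0.10, with 141 to 254 leaving out 1 sample. The replicate block gave 138. The cause of these shifts was not tested.

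Genes whose log2 fold change changed sign were none of them called. Acaa1a was −0.00403 in DESeq2, −0.00659 without the filter, −0.00774 with the CPM filter, −0.0011 thinned, −0.10 with the clock index, −0.0464 with the blood score and −0.0695 with the Gm42418 share. Acadm was 0.0407 in voom, 0.0229 under the replicate block, 0.20 with the clock index and 0.11 with the Gm42418 share. With the clock index Acad11 was 0.32, Etfa 0.19, Eci1 0.0805 and Acat1 0.14, and with the Gm42418 share 0.21, 0.0546, 0.0059 and 0.0945. Oxct1 was −0.0306 with the blood score and Etfdh 0.0435 with the Gm42418 share. Leaving out 1 sample, Acaa1a ran from −0.0379 to 0.0416, Acadm from −0.13 to 0.0410 (above 0 without air 1, air 9 or smoke 10), Acad11 from −0.17 to 0.0444 (above 0 without air 7, 9 or 10) and Oxct1 from −0.0038 to 0.0226 (below 0 without air 11). Cpt1b, Slc22a5, Acad9, Acad10 and Echdc3 were below the expression filter and had no test in the main fit. Without the filter their edgeR adjusted p-values were 0.307 to 0.975. The cause of their low counts was not tested.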
